A study of Mus musculus with 15 samples.

Results

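Late and early Fra2-activated mouse fibroblasts were compared, 3 libraries against 3, chosen by their titles from the 15 libraries of the series. The assay, Omni-ATAC-seq, uses a transposase that cuts and tags open DNA, so that more reads at a site mean that the site was more open. The late Fra2 and early Fra2 cells were mouse embryonic fibroblasts of a C57/B16 background with a CRISPRa-VPR–mCherry construct, a guide-directed gene activator with a fluorescent reporter. They had received lentiviral guide RNAs for Fra2, the protein that Fosl2 encodes, and had been sorted as mCherry+/THY1+. The late control and early control cells, 3 libraries each, carried the same construct with a scrambled control and were sorted in the same way. Sample labels put late cells at day 10 and early cells at day 3, except early control 3 at day 4, whereas the series design gives 11 and 4 days after infection. Which promoter drives the construct was not stated. The remaining 3 libraries, of fibroblasts labelled Ezh2i (day 4), are in neither comparison but enter the fit and its estimate of spread. The labels do not say whether replicates came from separate cultures; the p-values therefore reflect only how much these libraries varied, and that variation may be technical.

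Fra2 belongs to the AP-1 family, whose members bind DNA as dimers at a short palindromic motif found in many enhancers, the distal elements that raise transcription. In fibroblasts, AP-1 is known for its part in the response to serum, in wound repair and in the control of matrix genes. Interferon response genes are switched on by STAT and IRF factors through another motif, the interferon-stimulated response element, and are known to respond to viral infection and to foreign nucleic acid.

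The deposited table held read counts for 206367 peaks, of which 206349 were tested. Reads in peaks came to 16.1 to 23.4 M (mega) in late Fra2, 12.7 to 21.6 M in early Fra2, 13.3 to 17.3 M in late control, and 6.75 to 19.4 M in early control libraries. Across peaks, log accessibility correlated at r = 0.924 to 0.939 within late Fra2, 0.896 to 0.921 within early Fra2 and 0.878 to 0.918 between them, and the early controls among themselves at 0.783 to 0.925. Early control 3 was the shallowest library. As a check of the cell type, 10 of 10 fibroblast markers had a peak at a gene end, with a median of 10.8 CPM (counts per M reads in peaks), against 85 of 126 markers of other cell types with a median of 4.32 CPM and 8.55 CPM over all genes. Of the 9 classes among these, macrophage and blood genes had the highest median, 9.47 CPM, and the other classes lay between 2.91 and 5.36 CPM.

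At Fosl2, the gene that the guides target, 36 peaks were tested and 3 fell with time in Fra2-activated cells, while none rose. Summed over its peaks, Fosl2 had 233, 239 and 249 CPM in late Fra2 and 280, 278 and 285 CPM in early Fra2 cells. The late libraries all lay below the early ones, a change that passed the test (log2 change ± SE in this and later brackets: -0.23 ± 0.04, edgeR adjusted p = 0.00421, on summed counts). The controls had 240, 248 and 241 CPM in late control and 263, 251 and 244 CPM in early control cells, which overlapped (-0.06 ± 0.04, edgeR adjusted p = 0.419). The difference between the Fra2 and the control change did not pass the test (-0.16 ± 0.06, edgeR adjusted p = 0.303). The amount of Fosl2 RNA or Fra2 protein was not measured in these libraries.

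The 3 called peaks lay 4.3, 5.1 and 5.8 kb past the higher-coordinate end of Fosl2. The first of them, at chr5:32161859-32162360 on mm10, had 3, 3.41 and 3.68 CPM in late Fra2 and 5.08, 6.32 and 8.21 CPM in early Fra2 cells (-0.95 ± 0.23, edgeR adjusted p = 0.0139). It had 1.49, 1.27 and 1.89 CPM in late control and 1.13, 2.1 and 2.8 CPM in early control cells. The late and early Fra2 libraries did not overlap, and every Fra2 library lay above every control library at this peak. Fra2 over control was 1.11 on the log2 scale late (edgeR adjusted p = 0.00477) and 1.81 early (edgeR adjusted p = 8.25e-07), values that share libraries with the change over time. The peak by the annotated start site, at chr5:32136166-32136667, had 8.48, 9.28 and 8.6 CPM in late Fra2 and 13.4, 14.9 and 9.8 CPM in early Fra2 cells. Its Fra2 groups did not overlap, but the change missed the threshold (-0.53 ± 0.15, edgeR adjusted p = 0.0604). The most open peak of the locus, 0.7 kb before the start, had 37.7, 36.8 and 39.7 CPM in late Fra2 and 46.6, 44.8 and 37.3 CPM in early Fra2 cells, which overlapped (-0.18 ± 0.15, edgeR adjusted p = 0.677). Over the 32 peaks within 10 kb the median log2 change was -0.29 in Fra2 cells and -0.14 in controls. All 3 calls were lost on leaving out late Fra2 1, late Fra2 2 or early Fra2 3, 2 on leaving out early Fra2 1 or 2, 1 on leaving out late Fra2 3, and 2 with scaling on gene-end peaks.

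**Figure D1:**
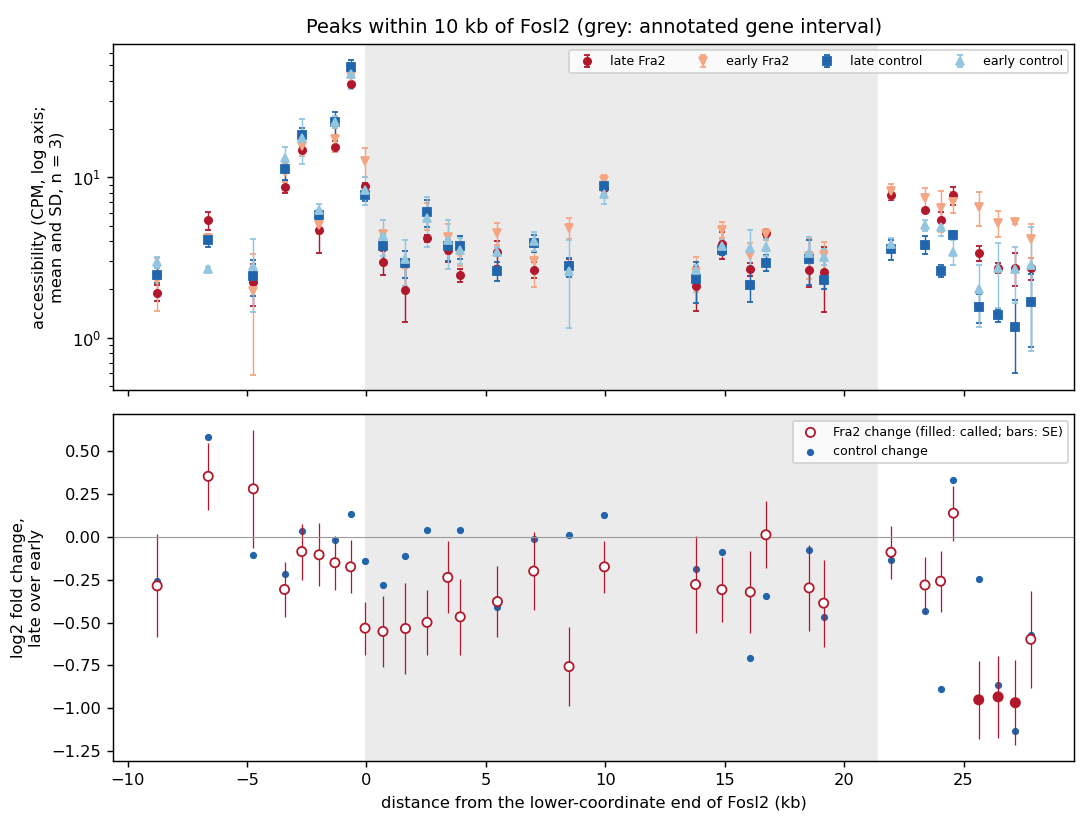
Peaks within 10 kb of Fosl2: mean CPM with SD (n = 3) on a log axis for late Fra2, early Fra2, late control and early control cells, and the log2 change from early to late with SE, against distance in kb from the lower-coordinate gene end. The 3 called peaks (filled) lie past the other end, 4.3 to 5.8 kb beyond the gene.

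Across the genome, 810 peaks rose and 2252 fell in late relative to early Fra2-activated cells at an edgeR adjusted p under 0.05. These were 0.393% and 1.09% of all tested peaks. The median log2 change was 0.84 among rising and -0.92 among falling peaks, and 202 and 892 of them passed an absolute log2 change of 1. Rising peaks had a median of 5.4 CPM in late Fra2 and 3.02 CPM in early Fra2 cells, and of 4.07 CPM in late control and 3.12 CPM in early control cells. Falling peaks had a median of 2.94 CPM in late Fra2 and 5.6 CPM in early Fra2 cells, and of 3.19 CPM in late control and 4.3 CPM in early control cells. All late Fra2 libraries lay above all early ones at 807 of the 810 and below them at 2228 of the 2252, patterns held by 9.85% and 10.1% of all tested peaks. Where it is stated for a called peak, a lack of overlap between the Fra2 groups therefore adds little to the call. In bulk cells, fewer cells of a type and less accessibility per cell cannot be told apart.

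The split between directions moved with the scaling. It was 26.5% rising with factors from all peaks and 46.9% rising, 1363 peaks against 1541, with factors from gene-end peaks, which moved the median log2 change of all peaks to 0.065. None of the called peaks changed sign under any alternative run, a weak check, since all had absolute log2 changes of at least 0.52. Counts depended on single libraries. Without early control 3, which is in neither Fra2 group but shares in the estimate of spread, 2202 peaks rose and 4426 fell, among them all 810 and all 2252. Without late Fra2 1, 2 or 3, 229, 239 or 328 peaks rose and 1064, 980 or 1052 fell. Without early Fra2 1, 2 or 3, 310, 298 or 507 peaks rose and 951, 1146 or 1728 fell.

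Peaks at gene ends held a smaller share of calls than the others. Of 26742 peaks whose centre lay no more than 1 kb from a protein-coding gene's start or end, 51 (0.191%) rose and 125 (0.467%) fell. Of 97962 peaks elsewhere inside genes 395 (0.403%) rose and 1064 (1.09%) fell, and of 81645 peaks outside genes 364 (0.446%) rose and 1063 (1.3%) fell. Gene-end peaks held 20.7, 20.4 and 20.9% of reads in late Fra2 and 21.9, 21.7 and 20.7% in early Fra2 libraries, a difference of -0.772 percentage points that was not resolved (exact two-sided permutation test, p = 0.2, where 3 against 3 libraries cannot go below 0.1). By chromosome, the share of rising peaks was highest on chromosome 10, with 83 of 10539 (0.788%), and the share of falling peaks was lowest on the X, with 22 of 3682 (0.598%). Of the peaks that rose, 140 (17.3%) lay within 20 kb of another rising peak, and of those that fell, 347 (15.4%) lay within 20 kb of another falling one. Whether these shares exceed those of peaks drawn at random was not tested. Single loci held many called peaks, with 29 rising at Fn1 and 45 falling at Rnf213 with Endov.

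The scrambled controls also changed with time: 4218 peaks rose (2.04%) and 2548 fell (1.23%). These libraries are separate from the Fra2 libraries. Of the 810 peaks that rose in Fra2 cells, 120 also rose in controls, 14.8% of the 810 and 2.84% of the control calls. Of the 2252 that fell, 496 also fell in controls, 22% of the 2252 and 19.5% of the control calls. Opposite calls numbered 1 and 6. Calls aside, 82.7% of the rising and 85.9% of the falling peaks had the same sign in controls, with median control log2 changes of 0.36 and -0.43. Over all tested peaks 58.6% shared the sign and the 2 changes correlated at r = 0.29, across peaks that are not independent.

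**Figure D2:**
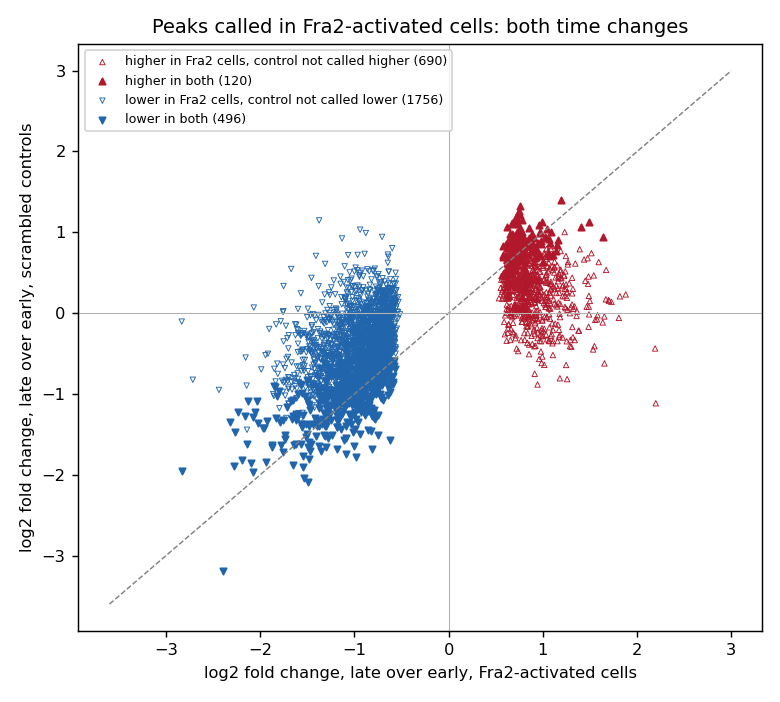
Log2 change from early to late of the peaks called in Fra2-activated cells (x axis) against the change of the same peaks in scrambled controls (y axis), with the 120 rising and 496 falling peaks that were also called in controls marked. The dashed line is equal change, and the empty band around 0 on the x axis comes from the calling.

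Whether the change over time differed between Fra2-activated and control cells was tested as the difference of the 2 changes. It passed at 0.0935% of peaks, positive at 24 (0.0116%) and negative at 169 (0.0819%), and on counts summed per gene at 2 (0.0109%) and 11 genes (0.0601%). Of the 24, 9 rose in Fra2 cells and 13 fell in controls. Of the 169, 40 fell in Fra2 cells and 134 rose in controls, and 129 had no call in Fra2 cells. Leaving out any 1 of the 12 libraries except early Fra2 3 moved both counts by over 1.5 times. Omitting late Fra2 1, 2 or 3 left 7, 2 or 3 positive and 94, 29 or 26 negative peaks, and omitting early Fra2 1 or 2 left 6 or 3 and 33 or 35. Omitting late control 1, 2 or 3 left 9, 1 or 9 positive and 108, 21 or 59 negative peaks, and omitting early control 1, 2 or 3 left 79, 10 or 96 and 500, 61 or 435.

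The negative difference with the smallest p was at an end of Olfr654, an olfactory receptor gene, at chr7:104588138-104588639. It had 4.71, 4.21 and 5.34 CPM in late Fra2 and 8.97, 9.19 and 9.15 CPM in early Fra2 cells, and 5.53, 5.01 and 5.18 CPM in late control and 2.63, 2.39 and 2.66 CPM in early control cells. Neither pair overlapped and the 2 moved in opposite directions, and the difference of the log2 changes passed the test (-1.97 ± 0.26, edgeR adjusted p = 5.95e-05). The positive difference with the smallest p was 1.8 kb from Id1, which encodes an inhibitor of basic helix-loop-helix factors. The Id1 peak had 9.37, 7.79 and 11.1 CPM in late Fra2 and 7.6, 6 and 6.2 CPM in early Fra2 cells (0.49 ± 0.17, edgeR adjusted p = 0.131), and 8.14, 9.05 and 6.46 CPM in late control and 15.8, 14.9 and 11.8 CPM in early control cells (-0.87 ± 0.17, edgeR adjusted p = 0.00105). Of the 2 changes only that of the controls passed the test, and their difference passed as well (1.36 ± 0.24, edgeR adjusted p = 0.00422). A peak 62.1 kb from Shq1, a ribonucleoprotein assembly factor gene, had 13.3, 13.1 and 12.6 CPM in late Fra2 and 13.6, 14.5 and 12.5 CPM in early Fra2 cells, which overlapped, and 9.93, 12.8 and 13.2 CPM in late control and 4.78, 5.08 and 3.92 CPM in early control cells, which did not. The difference of the changes passed the test (-1.42 ± 0.23, edgeR adjusted p = 0.0024).

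Fn1 held more rising peaks than any other gene. It encodes fibronectin, a matrix glycoprotein that fibroblasts lay down in wounds. Of 83 tested peaks nearest to Fn1, 29 rose and none fell (34.9%, against 0.393% of all peaks), 76 had a positive log2 change, and the median was 0.68. Summed accessibility at Fn1 was 499, 479 and 458 CPM in late Fra2 and 313, 309 and 314 CPM in early Fra2 cells (0.62 ± 0.05, edgeR adjusted p = 3.87e-08). On such sums, 0.382% of 18301 genes rose and 0.994% fell. The controls had 408, 372 and 373 CPM in late control and 305, 280 and 340 CPM in early control cells (0.33 ± 0.05, edgeR adjusted p = 0.000707), where 2.45% of genes rose. Late libraries lay above early ones in both cell groups, and the difference of the changes did not pass the test (0.29 ± 0.07, edgeR adjusted p = 0.163).

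The rising peaks lay along most of Fn1. They spanned 62.9 kb, 25 of the 29 inside chr1:71585473-71653280, the annotated gene on mm10. Of the 4 and 8 peaks 10 to 50 kb beyond its ends, none was called. Nor was the peak at the higher-coordinate end of Fn1, with means of 18.2 CPM in late Fra2 and 19.8 CPM in early Fra2 cells (-0.125 ± 0.158). The largest change was inside the gene at chr1:71643279-71643780, with 6.98, 7.04 and 6.02 CPM in late Fra2 and 1.9, 1.76 and 2.52 CPM in early Fra2 cells (1.70 ± 0.21, edgeR adjusted p = 4.21e-07). Controls had 4.26, 2.78 and 4.45 CPM in late control and 3.92, 2.9 and 3.36 CPM in early control cells at this peak, which overlapped (0.15 ± 0.22, edgeR adjusted p = 0.786). The early Fra2 libraries were below, and the late Fra2 libraries above, every control library, and the difference of the changes passed the test (1.55 ± 0.31, edgeR adjusted p = 0.0175). The neighbouring peak at chr1:71644163-71644664 also differed from controls in its change (1.65 ± 0.34, edgeR adjusted p = 0.0283), with 5.05, 5.33 and 5.46 CPM in late Fra2 and 1.8, 1.6 and 1.87 CPM in early Fra2 cells.

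Hmga2 and Cd44 also had over 10 rising peaks each. Hmga2, a chromatin architectural protein of embryonic cells and tumours, had 13 of 120 peaks rising. Its summed values were 634, 642 and 667 CPM in late Fra2 and 478, 499 and 502 CPM in early Fra2 cells (0.39 ± 0.05, edgeR adjusted p = 6.52e-05), without overlap. The controls had 555, 554 and 487 CPM in late control and 446, 458 and 514 CPM in early control cells (0.17 ± 0.05, edgeR adjusted p = 0.0449), with overlap. Cd44, the hyaluronan receptor, had 17 peaks rising and 1 falling of 105, with 623, 633 and 606 CPM in late Fra2 and 533, 529 and 536 CPM in early Fra2 cells (0.22 ± 0.04, edgeR adjusted p = 0.00577). Its controls had 544, 536 and 522 CPM in late control and 531, 535 and 467 CPM in early control cells (0.06 ± 0.04, edgeR adjusted p = 0.426) and overlapped. Without late Fra2 2 the change at Cd44 missed the threshold (edgeR adjusted p = 0.064). The called Cd44 peaks inside or near the gene lay towards its lower-coordinate end, and the strongest, at chr2:102809395-102809896, had 5.22, 5.55 and 4.73 CPM in late Fra2 and 1.57, 1.84 and 2.09 CPM in early Fra2 cells (1.52 ± 0.25, edgeR adjusted p = 0.000137). The peak at the higher-coordinate end of Cd44 was not called, with means of 19.7 CPM in late Fra2 and 23.0 CPM in early Fra2 cells (-0.227 ± 0.158). The difference from controls did not pass the test at Hmga2 or Cd44 (edgeR adjusted p = 0.265 and 0.33). In the flanks 10 to 50 kb away, none of 8 and 4 peaks rose at Hmga2, and none of 6 and 16 at Cd44.

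**Figure D3:**
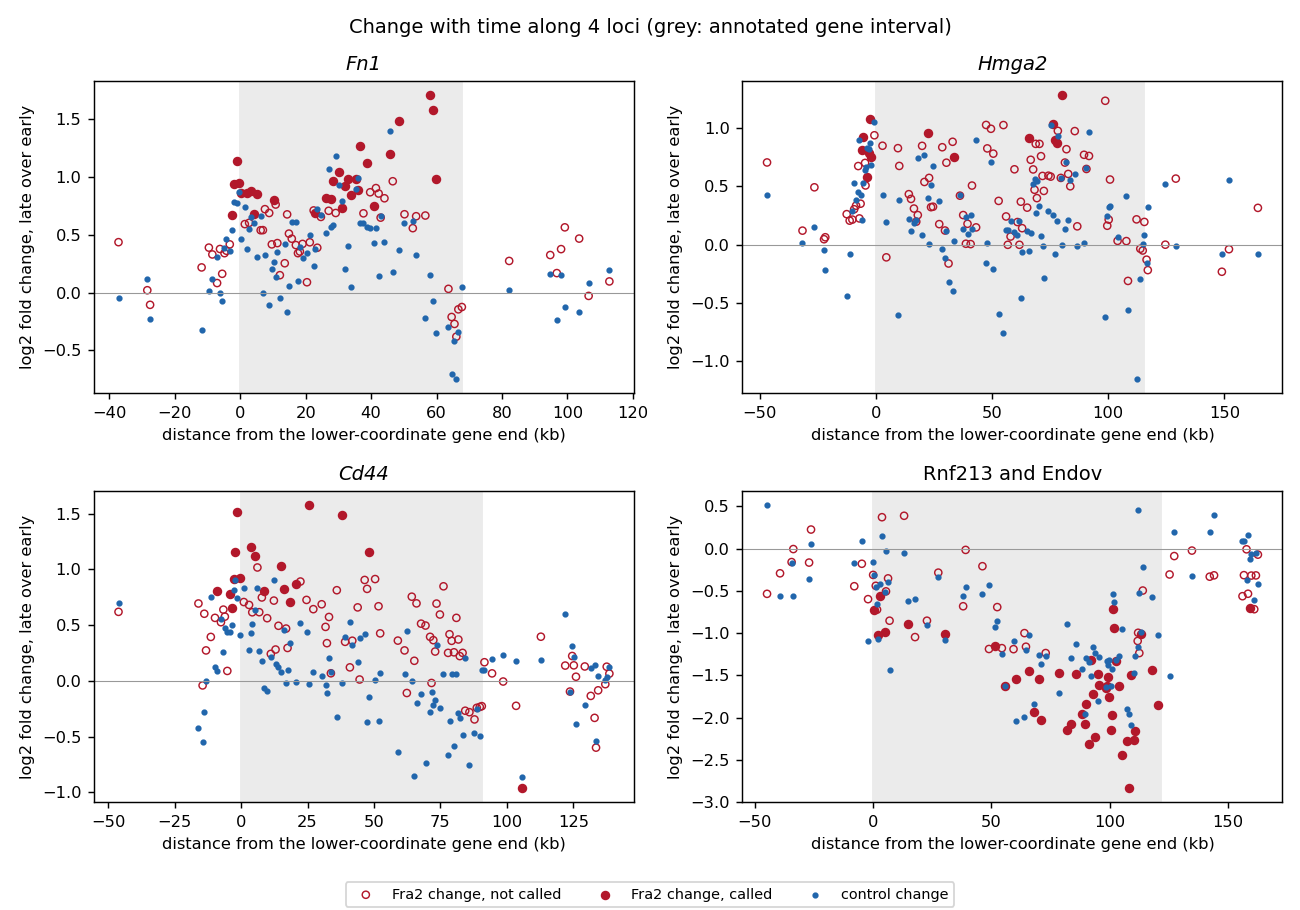
Log2 change from early to late of each tested peak along Fn1, Hmga2, Cd44, and Rnf213 with Endov, against distance in kb from the lower-coordinate end of the gene interval (grey). Filled and open red circles are called and uncalled changes in Fra2-activated cells and blue dots are the controls; most calls lie in the intervals or within 10 kb of them.

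Itgb1 and Csf1 had 5 rising peaks each, and Fbxl18 and Ccn2 had 4. Fbxl18, an F-box protein gene, had 4 of 18 peaks rising and summed values of 153, 148 and 161 CPM in late Fra2 and 110, 119 and 120 CPM in early Fra2 cells (0.41 ± 0.05, edgeR adjusted p = 9.25e-05), with a control change of 0.34 ± 0.05, edgeR adjusted p = 0.000486. Itgb1, the common beta subunit of many matrix-binding integrins, had 5 of 44 rising, while its sum did not pass the test (0.18 ± 0.05, edgeR adjusted p = 0.096). Csf1, the macrophage growth factor gene, had 5 rising and 1 falling of 53, with 355, 362 and 382 CPM in late Fra2 and 300, 335 and 329 CPM in early Fra2 cells (0.19 ± 0.04, edgeR adjusted p = 0.0297). The Csf1 call was lost without late Fra2 1, 2 or 3 or early Fra2 1 or 2 (edgeR adjusted p = 0.0612, 0.117, 0.163, 0.179 and 0.0503). In sums alone, with no called peak, Dock3 rose, at 84.5, 87.1 and 82.6 CPM in late Fra2 and 71.6, 62.7 and 68.8 CPM in early Fra2 cells (0.32 ± 0.06, edgeR adjusted p = 0.00586), while its controls had 75.3, 82.2 and 77.8 CPM in late control and 81.6, 78.7 and 86 CPM in early control cells (-0.06 ± 0.06, edgeR adjusted p = 0.632). The Dock3 call was lost without late Fra2 2 or early Fra2 2 (edgeR adjusted p = 0.0638 and 0.0558).

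In the list of AP-1 target and wound genes, 75 of 958 peaks rose (7.83%) and 12 fell (1.25%), with a median log2 change of 0.15. In controls 50 rose (5.22%, against 2.04% of all peaks) and 25 fell (2.61%, against 1.23%). Fn1, Cd44 and Hmga2 gave 59 of the 75 in 308 peaks. The other 32 genes gave 16 rising (2.46%) and 11 falling (1.69%) of 650, against 0.393% and 1.09% of all peaks. Among the 16 were 2 at Tnc and 1 each at Areg, Itgav and Mmp13. Areg, an EGF-family ligand, had 5.56, 4.91 and 5.59 CPM in late Fra2 and 3.37, 1.76 and 2.16 CPM in early Fra2 cells at a peak 20.8 kb away (1.08 ± 0.23, edgeR adjusted p = 0.00507), and 2.09, 2.47 and 2.86 CPM in late control and 1.77, 3.19 and 5.04 CPM in early control cells, which overlapped. Rising peaks of the list numbered 39, 39 and 42 without late Fra2 1, 2 and 3, 31 and 41 without early Fra2 1 and 2, and 118 without early control 3.

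Falling peaks of the same list included a matrix protease gene, a protease inhibitor gene and an immediate-early gene. Mmp14, a membrane-bound collagenase, had 4.79, 4.16 and 4.73 CPM in late Fra2 and 8.73, 9.67 and 7.57 CPM in early Fra2 cells (-0.92 ± 0.17, edgeR adjusted p = 0.000759), and Timp3, an inhibitor of such proteases, had 4.79, 3.09 and 4.79 CPM in late Fra2 and 7.31, 9.75 and 8.86 CPM in early Fra2 cells (-1.01 ± 0.17, edgeR adjusted p = 0.000245). Neither overlapped. Egr1, an immediate-early gene of the serum response, had 2 falling peaks, the stronger with 1.54, 1.49 and 1.6 CPM in late Fra2 and 3.56, 4 and 4.4 CPM in early Fra2 cells (-1.35 ± 0.22, edgeR adjusted p = 0.000135). It had 3.88, 3.02 and 2.44 CPM in late control and 11.8, 7.91 and 10.4 CPM in early control cells (-1.70 ± 0.19, edgeR adjusted p = 1e-07). The early control libraries were the highest of the 12 there.

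Genes of the AP-1 family itself had no rising peak of 299, too few peaks to tell this apart from the 0.393% of all peaks that rose. Of 299 peaks near 20 family genes, 8 fell (2.68%, against 1.09% of all peaks), among them 3 at Fosl2 and 1 each at Fos, Fosb, Jdp2 and Mafk. In controls 14 fell (4.68%, against 1.23% of all peaks) and 2 rose (0.669%, against 2.04%). Jdp2, a dimerization partner that represses AP-1, had 2.91, 2.72 and 2.7 CPM in late Fra2 and 5.89, 7.35 and 4.76 CPM in early Fra2 cells 26.4 kb from the gene (-1.10 ± 0.21, edgeR adjusted p = 0.000987). Its controls had 3.44, 5.31 and 4.69 CPM in late control and 6.87, 6.31 and 3.64 CPM in early control cells and overlapped (-0.38 ± 0.20, edgeR adjusted p = 0.331). Fos, the classic partner of Jun, had 1.8, 2.35 and 1.53 CPM in late Fra2 and 3.85, 3.04 and 3.17 CPM in early Fra2 cells at a peak in the gene (-0.84 ± 0.22, edgeR adjusted p = 0.0315), and 3.14, 3.62 and 4.57 CPM in late control and 7.08, 6.82 and 7.42 CPM in early control cells (-0.90 ± 0.19, edgeR adjusted p = 0.00397). Fosb and Mafk, at peaks in their genes, had changes of -0.85 ± 0.22, edgeR adjusted p = 0.0312 and -0.66 ± 0.17, edgeR adjusted p = 0.0304. The list had 2 falling calls with gene-end scaling, 13 without early control 3, and 2 to 4 without any 1 of the Fra2 libraries, of which late Fra2 3 gave the 4.

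The locus with the most falling peaks was Rnf213 with its neighbour Endov on chromosome 11. Rnf213 encodes a giant ubiquitin ligase whose gene is induced by interferon, and Endov encodes endonuclease V, which acts on nucleic acid that contains inosine. Of 51 peaks nearest to Rnf213 29 fell (56.9%), and of 23 nearest to Endov 16 fell (69.6%), against 1.09% of all peaks. At Rnf213 summed values were 103, 121 and 116 CPM in late Fra2 and 200, 210 and 197 CPM in early Fra2 cells (-0.84 ± 0.08, edgeR adjusted p = 1.23e-06). The controls had 133, 128 and 137 CPM in late control and 208, 215 and 290 CPM in early control cells (-0.82 ± 0.09, edgeR adjusted p = 2.85e-06). At Endov summed values were 70.8, 77.5 and 76.8 CPM in late Fra2 and 144, 136 and 129 CPM in early Fra2 cells (-0.87 ± 0.06, edgeR adjusted p = 2.15e-09). The controls had 88.6, 86.8 and 85.2 CPM in late control and 131, 149 and 133 CPM in early control cells (-0.66 ± 0.06, edgeR adjusted p = 5.5e-07). Late and early libraries did not overlap at either gene in either cell group, and the differences from controls did not pass the test (edgeR adjusted p = 0.978 and 0.407).

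Over both genes and 10 kb on each side, 45 of 75 peaks fell in Fra2 cells and 39 in controls, with median log2 changes of -1.19 and -1.10. None of the 6 peaks 10 to 50 kb below the locus and 1 of the 12 above it fell. The peak at chr11:119497849-119498350 in Endov had the largest absolute log2 change of all called peaks. It had 0.214, 0.373 and 1.04 CPM in late Fra2 and 3.13, 3.68 and 4.32 CPM in early Fra2 cells (-2.84 ± 0.40, edgeR adjusted p = 6.7e-06). It had 0.672, 0.845 and 0.975 CPM in late control and 2.52, 2.39 and 5.46 CPM in early control cells (-1.95 ± 0.39, edgeR adjusted p = 0.00175). A count of 3 reads is 0.128 to 0.24 CPM in the Fra2 libraries, so the lowest late values rest on few reads. At chr11:119483240-119483741 in Rnf213 the values were 0.642, 1.12 and 1.11 CPM in late Fra2 and 4.6, 4.72 and 3.89 CPM in early Fra2 cells (-2.23 ± 0.27, edgeR adjusted p = 3.48e-07), again with no overlap.

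**Figure D4:**
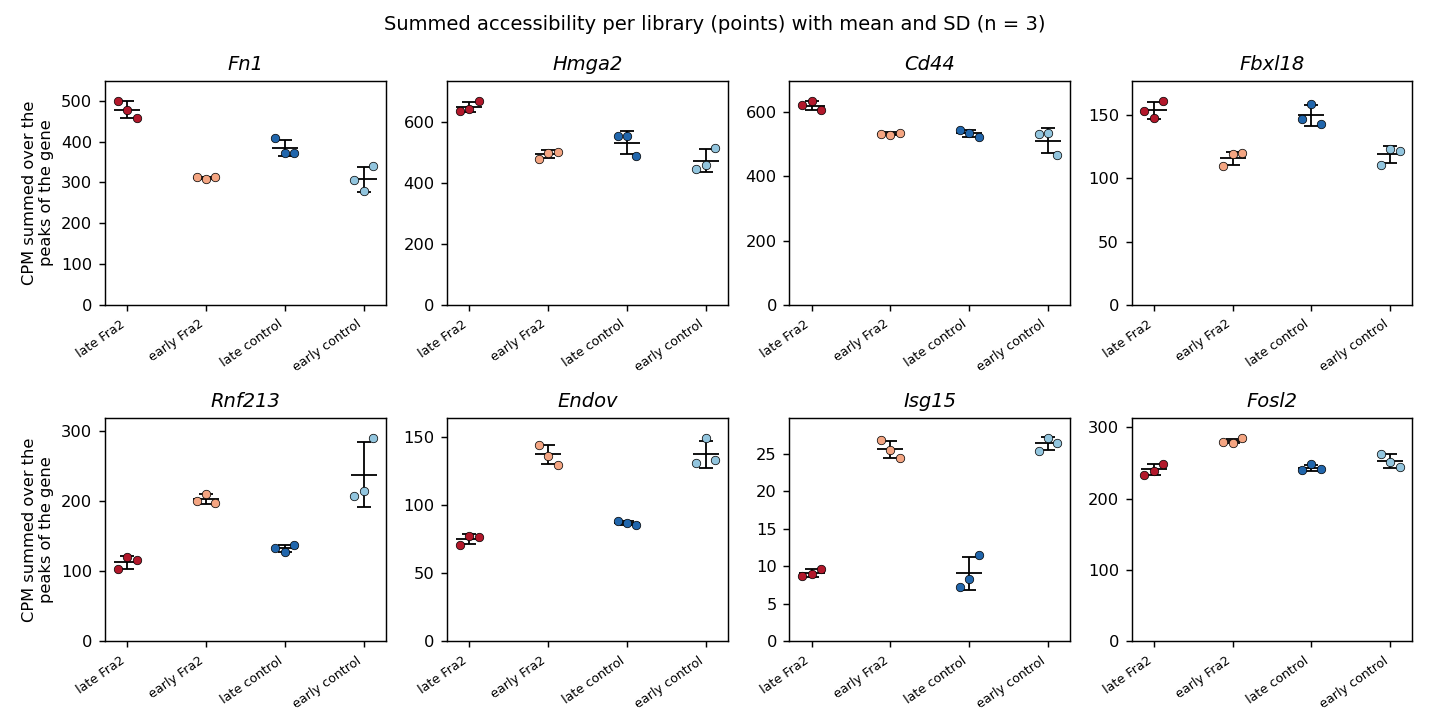
CPM summed over all tested peaks of 8 genes in each library (points), with mean and SD (n = 3), for late Fra2, early Fra2, late control and early control cells from left to right. In Fra2 cells late lies above early for Fn1, Hmga2, Cd44 and Fbxl18 and below it for Rnf213, Endov, Isg15 and Fosl2.

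Interferon response genes had falling peaks in both cell groups. Of 154 peaks near 23 genes of the list, 17 fell (11%, against 1.09% of all peaks) at 13 genes and none rose. In controls 15 fell (9.74%, against 1.23% of all peaks) and 3 rose (1.95%, against 2.04%). In Fra2 cells 1 peak rose with loess scaling or without early control 3. No peak of the list differed between the 2 changes, and the median of all 154 was -0.12. The 13 genes were Isg15, with 4 peaks, Usp18, with 2, and Bst2, Ifih1, Ifit2, Ifit3, Irf1, Irf7, Oas1a, Oasl1, Oasl2, Rsad2 and Stat2. Among them are antiviral effectors (Isg15, a ubiquitin-like modifier, Rsad2, also called viperin, and Bst2, tetherin), sensors of foreign RNA (Ifih1 and Oas1a) and factors that drive the response (Stat2, Irf1 and Irf7). The count was 14 with gene-end scaling and 22 without early control 3. It was 11, 10 and 10 without late Fra2 1, 2 and 3, and 8, 12 and 17 without early Fra2 1, 2 and 3. Summed over the list, late Fra2 libraries had 677 to 696 CPM and early Fra2 libraries 744 to 819 CPM.

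The promoters under the falling peaks were searched on both strands for the core of the interferon-stimulated response element. This core is GAAA, any 2 bases (NN) and GAAA again. The promoters were searched in the same way for TGANTCA, a loose form of the AP-1 motif that allows any base at N. Its matches are therefore not all AP-1 sites. RefSeq promoter windows on GRCm38.p6 hold 300 bases around a start site and were at hand for 17492 of 21900 protein-coding genes. Falling peaks overlapped 57 windows of 51 genes, of which 16 held the interferon core (28.1%), against 2.77% of the 12842 windows under any tested peak and 3.35% of all 21263 windows. TGANTCA was also in 16 of the 57 (28.1%), against 5.64% and 6.99%. The 2 sets were not separate: the windows of Ifit3, Ifit3b, Irgm1, Rsad2, Trim30a and Trim30d held matches to both. AW551984 and Prxl2a each entered the TGANTCA set through overlapping windows at the same peak. Rising peaks overlapped 7 windows, none with the interferon core and 1 with TGANTCA. The 16 windows with the interferon core were those of Ifih1, Ifit1, Ifit1bl2, Ifit3, Ifit3b, Igtp, Irgm1, Isg15, Oas1a, Oas1g, Rsad2, Shisa5, Socs1, Tcf12, Trim30a and Trim30d; Ifit1 and Ifit1bl2 share a peak. With gene-end scaling 12 of 45 windows held it (26.7%), with loess 20 of 138 (14.5%), and without early control 3 20 of 189 (10.6%). For TGANTCA these shares were 28.9%, 13.8% and 10.6%. A match describes the letters and shows no binding.

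The windows of 4 list genes with a falling promoter peak and a match, whose values follow, are shown so that the motif can be read in place. They are from RefSeq (GRCm38.p6), 5′ to 3′ on the strand of the gene, with capitals at matches to the interferon core on either strand; overlapping matches share a run. Isg15 held 3 matches, Oas1a and Ifit3 2 each and Rsad2 1.
Isg15: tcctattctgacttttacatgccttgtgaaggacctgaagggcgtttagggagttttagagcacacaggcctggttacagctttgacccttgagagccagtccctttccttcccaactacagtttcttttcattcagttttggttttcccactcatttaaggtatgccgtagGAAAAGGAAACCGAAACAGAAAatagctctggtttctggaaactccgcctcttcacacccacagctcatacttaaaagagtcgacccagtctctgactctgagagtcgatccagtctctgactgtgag
Oas1a: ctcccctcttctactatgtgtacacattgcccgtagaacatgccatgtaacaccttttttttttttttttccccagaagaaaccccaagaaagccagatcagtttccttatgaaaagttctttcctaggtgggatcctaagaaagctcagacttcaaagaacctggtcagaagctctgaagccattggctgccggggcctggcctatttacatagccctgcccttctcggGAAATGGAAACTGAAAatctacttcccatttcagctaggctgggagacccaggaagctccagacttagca
Ifit3: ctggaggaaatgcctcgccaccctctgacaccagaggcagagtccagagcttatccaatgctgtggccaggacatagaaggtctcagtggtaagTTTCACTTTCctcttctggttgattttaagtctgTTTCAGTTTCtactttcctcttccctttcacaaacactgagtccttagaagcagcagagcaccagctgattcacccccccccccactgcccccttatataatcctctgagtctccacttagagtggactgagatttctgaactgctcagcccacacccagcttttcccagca
Rsad2: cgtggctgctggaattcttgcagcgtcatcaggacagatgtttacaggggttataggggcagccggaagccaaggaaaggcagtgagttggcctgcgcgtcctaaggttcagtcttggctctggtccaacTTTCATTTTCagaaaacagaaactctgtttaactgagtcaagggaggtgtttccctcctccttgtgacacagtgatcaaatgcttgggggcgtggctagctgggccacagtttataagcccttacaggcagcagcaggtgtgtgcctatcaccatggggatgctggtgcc

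These windows lie at chr4:156200769-156201068 (Isg15, minus strand), chr5:120907476-120907775 (Oas1a, minus strand), chr19:34583279-34583578 (Ifit3, plus strand) and chr12:26456403-26456702 (Rsad2, minus strand). All 4 tested peaks of Isg15 fell, with summed values of 8.69, 9.05 and 9.71 CPM in late Fra2 and 26.8, 25.5 and 24.5 CPM in early Fra2 cells (-1.49 ± 0.12, edgeR adjusted p = 3.87e-08). The controls had 7.31, 8.33 and 11.5 CPM in late control and 25.4, 27.1 and 26.5 CPM in early control cells (-1.53 ± 0.13, edgeR adjusted p = 1.16e-07), so late and early were apart in both cell groups. The peak over the Isg15 window had 3.9, 3.73 and 4.3 CPM in late Fra2 and 11.2, 10.2 and 8.07 CPM in early Fra2 cells (-1.32 ± 0.18, edgeR adjusted p = 4.43e-06). The peak over the Rsad2 window had 1.88, 2.88 and 2.09 CPM in late Fra2 and 4.65, 4.08 and 4.83 CPM in early Fra2 cells (-0.99 ± 0.22, edgeR adjusted p = 0.00798), and 1.79, 2.11 and 2.5 CPM in late control and 4.29, 5.22 and 4.62 CPM in early control cells (-1.13 ± 0.24, edgeR adjusted p = 0.00314). Both fell without overlap.

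Ifit3, an RNA-binding antiviral protein gene, had 2.23, 1.81 and 3.07 CPM in late Fra2 and 6.93, 4.48 and 4.4 CPM in early Fra2 cells at the peak over its window (-1.19 ± 0.22, edgeR adjusted p = 0.000887), and 2.17, 1.99 and 1.77 CPM in late control and 4.67, 3.34 and 3.22 CPM in early control cells (-0.97 ± 0.25, edgeR adjusted p = 0.0188). Oas1a, an oligoadenylate synthetase gene, had 2.78, 2.35 and 1.9 CPM in late Fra2 and 7.69, 6.71 and 4.47 CPM in early Fra2 cells (-1.42 ± 0.20, edgeR adjusted p = 1.18e-05). Its controls had 4.41, 5.43 and 5.73 CPM in late control and 7.35, 5.22 and 8.68 CPM in early control cells, which overlapped (-0.41 ± 0.19, edgeR adjusted p = 0.252). The difference between the changes at Oas1a did not pass the test (-1.01 ± 0.28, edgeR adjusted p = 0.142). Outside the list, Zbp1, an interferon-induced sensor of Z-form nucleic acid, had 1.84, 2.72 and 1.96 CPM in late Fra2 and 7.31, 8.31 and 7.42 CPM in early Fra2 cells (-1.82 ± 0.22, edgeR adjusted p = 4.04e-07), and 0.896, 1.69 and 1.4 CPM in late control and 2.2, 3.19 and 3.08 CPM in early control cells (-1.03 ± 0.28, edgeR adjusted p = 0.028). Trim30a, another interferon-induced gene, had sums of 14.9, 15.3 and 16 CPM in late Fra2 and 30, 25.3 and 23.5 CPM in early Fra2 cells (-0.78 ± 0.10, edgeR adjusted p = 5.32e-05).

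**Figure D5:**
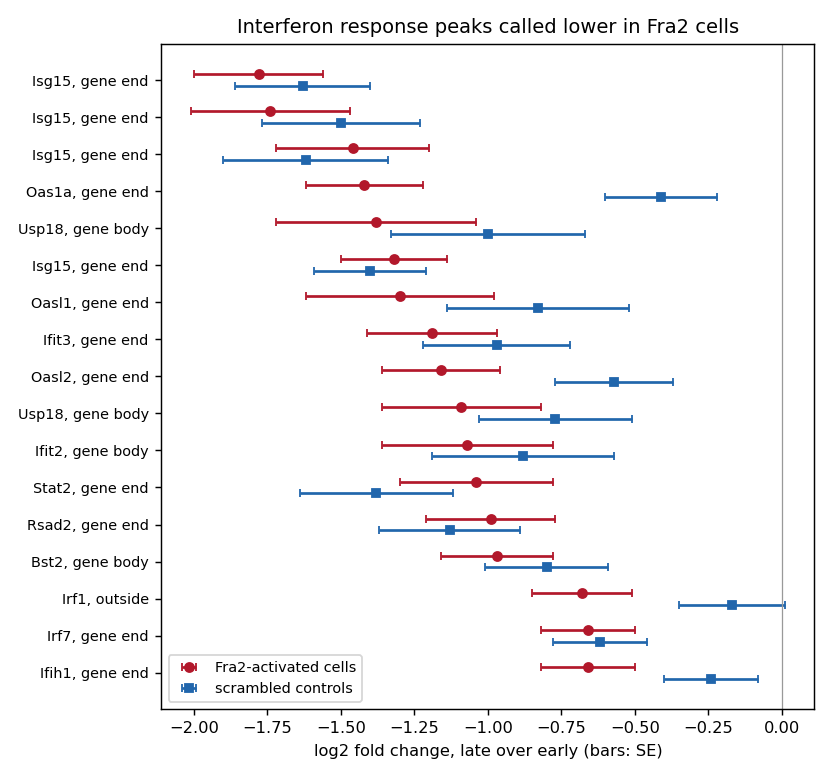
Log2 change from early to late, with SE, of the 17 interferon response peaks that fell in Fra2-activated cells (circles), beside the change of the same peaks in scrambled controls (squares). All 17 control values are below 0, between -1.63 at Isg15 and -0.17 at Irf1.

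Fibroblast identity genes had no rising peak of 884, where 0.393% of all peaks rose. At 10 genes 18 fell (2.04%, against 1.09% of all peaks). In controls 14 rose and 22 fell (1.58% and 2.49%, against 2.04% and 1.23% of all peaks). In Fra2 cells 2 peaks rose with gene-end scaling, 3 with loess and 7 without early control 3. Fbn1, which encodes the microfibril protein fibrillin-1, held 7 of the 18 in 56 of the 884 peaks. Its peak at chr2:125306896-125307397 in the gene had 15, 14 and 12.9 CPM in late Fra2 and 25.9, 23.8 and 21.3 CPM in early Fra2 cells (-0.76 ± 0.15, edgeR adjusted p = 0.00203). The controls had 9.56, 12.2 and 8.89 CPM in late control and 7.78, 8.78 and 5.46 CPM in early control cells there, so every Fra2 library lay above every control library, and the changes differed (-1.20 ± 0.23, edgeR adjusted p = 0.0149). Summed over 56 peaks, Fbn1 had 294, 289 and 284 CPM in late Fra2 and 359, 335 and 331 CPM in early Fra2 cells (-0.24 ± 0.06, edgeR adjusted p = 0.0473), a call lost with gene-end scaling (edgeR adjusted p = 0.105) and without any 1 of the 6 Fra2 libraries (0.0632 to 0.202). Col1a1, a chain of type I collagen, had 13.6, 11.5 and 13 CPM in late Fra2 and 21.8, 19.2 and 17.4 CPM in early Fra2 cells at a peak by its end (-0.62 ± 0.15, edgeR adjusted p = 0.0179). The other falling peaks were at Col5a1 and Postn, 2 each, and at Col3a1, Col6a1, Loxl1, Nt5e, Sparc and Twist2. The count was 38 without early control 3, 7, 6 and 9 without late Fra2 1, 2 and 3, and 3 and 10 without early Fra2 1 and 2.

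Contractile genes had calls in both directions, more of them rising, an excess that was lost without early Fra2 1 or early Fra2 3. Of 927 peaks near 24 myofibroblast and contractile genes, 14 rose (1.51%, against 0.393% of all peaks) at 11 genes and 5 fell (0.539%, against 1.09%). In controls 24 rose (2.59%, against 2.04% of all peaks) and 14 fell (1.51%, against 1.23%). Acta2, the smooth muscle actin gene that marks myofibroblasts, had 10.8, 9.97 and 10.3 CPM in late Fra2 and 5.89, 6 and 6.56 CPM in early Fra2 cells at its lower-coordinate end (0.76 ± 0.16, edgeR adjusted p = 0.00418). Its controls had 5.98, 8.57 and 9.32 CPM in late control and 6.28, 4.93 and 6.58 CPM in early control cells, which overlapped (0.45 ± 0.17, edgeR adjusted p = 0.142). Tpm1, a tropomyosin gene, had 3 rising peaks in the gene and 2 falling ones. The rising peak at chr9:67024820-67025321 had 15.3, 13.3 and 13.6 CPM in late Fra2 and 7.97, 10.4 and 8.07 CPM in early Fra2 cells (0.69 ± 0.16, edgeR adjusted p = 0.00935), and the falling one 58.4 kb away had 5.09, 4.96 and 4.24 CPM in late Fra2 and 8.92, 9.27 and 9.73 CPM in early Fra2 cells (-0.96 ± 0.16, edgeR adjusted p = 0.000211). Neither overlapped. Flna had 2 rising peaks, and Actn1, Cald1, Myh9, Myh11, Myl9, Myocd, Smtn and Vcl had 1 each. Rising calls numbered 3, 4 and 3 and falling calls 1, 2 and 1 without late Fra2 1, 2 and 3. Without early Fra2 1, 2 and 3 there were 2, 7 and 4 rising and 2, 2 and 4 falling calls, and without early control 3 there were 25 and 9.

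TGF-beta pathway genes had 5 rising (0.816%, against 0.393% of all peaks) and 8 falling peaks (1.31%, against 1.09%) of 613. These were 1 to 3 and 2 to 6 without any 1 of the 6 Fra2 libraries, and 11 and 18 without early control 3. Smad7, the inhibitory Smad that TGF-beta induces, had 1 of each, the rising one with 7.62, 8.64 and 7.86 CPM in late Fra2 and 3.13, 3.84 and 4.61 CPM in early Fra2 cells (1.08 ± 0.18, edgeR adjusted p = 0.000154). Its controls had 5, 5.43 and 4.08 CPM in late control and 3.06, 2.47 and 3.5 CPM in early control cells (0.71 ± 0.21, edgeR adjusted p = 0.0397). Inhba, which encodes the activin A subunit, had 2 rising peaks, the stronger with 3.85, 4.96 and 5.89 CPM in late Fra2 and 2.42, 1.12 and 2.52 CPM in early Fra2 cells (1.23 ± 0.26, edgeR adjusted p = 0.00359). Smad3, a signal-carrying Smad, had 2 falling peaks, the stronger with 2.65, 2.45 and 2.52 CPM in late Fra2 and 6.17, 5.92 and 4.4 CPM in early Fra2 cells (-1.12 ± 0.21, edgeR adjusted p = 0.000964). The groups were apart at all 3. Matrix and elastic fibre genes had 3 rising (0.505%) and 10 falling peaks (1.68%) of 594, which became 0 to 3 and 2 to 6 without any 1 of the Fra2 libraries and 10 and 18 without early control 3.

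YAP-TEAD target genes had 7 rising (1.04%, against 0.393% of all peaks) and 13 falling (1.93%, against 1.09%) peaks of 675. The well-known targets Ccn2 and Ccn1 moved in opposite directions. All 4 called peaks of Ccn2, connective tissue growth factor, rose. The one at chr10:24597664-24598165 had 12.2, 12.4 and 11.2 CPM in late Fra2 and 5.89, 8.23 and 4.76 CPM in early Fra2 cells (0.94 ± 0.16, edgeR adjusted p = 0.000265), with a control change of 0.18 ± 0.17, edgeR adjusted p = 0.66. All 4 called peaks of Ccn1, a related matricellular protein, fell. The one at chr3:145645320-145645821 had 11.6, 12.3 and 9.09 CPM in late Fra2 and 20.9, 21.7 and 16.9 CPM in early Fra2 cells (-0.85 ± 0.16, edgeR adjusted p = 0.0012), with a control change of -0.65 ± 0.16, edgeR adjusted p = 0.0127. Late and early did not overlap at either peak. Amotl2, a YAP-binding angiomotin, had 2 falling peaks, the stronger with 7.19, 6.83 and 6.2 CPM in late Fra2 and 12.8, 14.5 and 12.7 CPM in early Fra2 cells (-0.98 ± 0.16, edgeR adjusted p = 0.00012). Summed over all its peaks, Ccn2 did not pass the test (0.24 ± 0.07, edgeR adjusted p = 0.0943). The list had 2 to 5 rising and 4 to 11 falling calls without any 1 of the Fra2 libraries, and 12 and 25 without early control 3.

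The 12 rising peaks of largest change without overlap, 1 for each gene, included those at Anxa1, Atxn7l1, Cacna2d3, Cd44, Fn1, Msra, Pde4d, Prg4, Slmap, Tmcc3 and Ust. Anxa1, an anti-inflammatory annexin, had 4.92, 5.49 and 4.17 CPM in late Fra2 and 1.38, 1.76 and 2.16 CPM in early Fra2 cells (1.49 ± 0.24, edgeR adjusted p = 0.000121), and it rose in controls (1.12 ± 0.28, edgeR adjusted p = 0.0122). Tmcc3 had 7.02, 6.61 and 7.74 CPM in late Fra2 and 2.28, 3.28 and 2.38 CPM in early Fra2 cells (1.45 ± 0.19, edgeR adjusted p = 1.18e-06), and 5.08, 5.01 and 5.67 CPM in late control and 3.97, 3.85 and 4.2 CPM in early control cells (0.40 ± 0.19, edgeR adjusted p = 0.257). Cacna2d3, a calcium channel subunit gene, had a rising and a falling peak among the largest, both in the gene, with 3.94, 3.47 and 3.25 CPM in late Fra2 and 1.57, 1.92 and 0.649 CPM in early Fra2 cells at the rising one (1.36 ± 0.30, edgeR adjusted p = 0.00664). At the falling one it had 0.771, 1.28 and 0.921 CPM in late Fra2 and 3.8, 3.6 and 4.4 CPM in early Fra2 cells (-1.99 ± 0.37, edgeR adjusted p = 0.000734).

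The 12 falling peaks chosen alike included those at Adcy2, Cacna2d3, Ccdc33, Cyb5r4, Endov, Isg15, Rnf213, Thada, Ttc39c, Zbp1 and Zdhhc7. Ccdc33, at a peak in the gene, had 1.2, 1.39 and 1.35 CPM in late Fra2 and 5.36, 5.68 and 5.33 CPM in early Fra2 cells (-2.06 ± 0.22, edgeR adjusted p = 3.78e-08), and 2.99, 1.99 and 2.32 CPM in late control and 5.31, 5.22 and 6.72 CPM in early control cells (-1.22 ± 0.22, edgeR adjusted p = 0.00044). Zdhhc7, a palmitoyltransferase gene, had 0.685, 1.49 and 0.798 CPM in late Fra2 and 3.99, 3.52 and 3.03 CPM in early Fra2 cells (-1.83 ± 0.38, edgeR adjusted p = 0.00301), while its controls had 0.747, 0.845 and 0.731 CPM in late control and 0.805, 0.653 and 1.26 CPM in early control cells. Ttc39c had 1.11, 1.28 and 1.41 CPM in late Fra2 and 4.13, 4.48 and 4.47 CPM in early Fra2 cells (-1.78 ± 0.35, edgeR adjusted p = 0.00165), and its controls 1.2, 1.21 and 0.548 CPM in late control and 0.644, 0.653 and 2.38 CPM in early control cells. At these 2 peaks the early Fra2 libraries were the highest of the 12, and the difference from the control change did not pass the test (edgeR adjusted p = 0.311 and 0.259). Among gene sums, Alox5ap, an activator of leukotriene synthesis, had 94.7, 91.3 and 90.2 CPM in late Fra2 and 125, 129 and 111 CPM in early Fra2 cells (-0.40 ± 0.06, edgeR adjusted p = 0.000323). Agrn, the matrix proteoglycan agrin and the neighbour of Isg15, had 54.2, 54.7 and 59.9 CPM in late Fra2 and 76.9, 85.1 and 80 CPM in early Fra2 cells (-0.52 ± 0.07, edgeR adjusted p = 0.000169).

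Growth and inflammation lists had 6 calls or fewer in either direction. Cell cycle genes had no rising and 4 falling peaks of 290 (1.38%), at Aurkb, Ccnd1, E2f3 and Mcm3, and senescence and p53 genes none and 5 of 340 (1.47%), near the 1.09% of all peaks. Cdkn1a, the p53-induced inhibitor of cyclin-dependent kinases, had 3.12, 2.99 and 2.89 CPM in late Fra2 and 4.22, 4.88 and 5.48 CPM in early Fra2 cells (-0.68 ± 0.19, edgeR adjusted p = 0.0436), and its controls 3.59, 4.16 and 3.66 CPM in late control and 6.65, 5.37 and 7.14 CPM in early control cells (-0.73 ± 0.19, edgeR adjusted p = 0.0164). Chemokine and cytokine genes had 6 rising (1.89%, against 0.393% of all peaks) and 5 falling peaks (1.58%) of 317, with 5 of the 6 at Csf1. Without any 1 of the Fra2 libraries these were 0 to 6, with none left without early Fra2 1, and 2 to 4, and without early control 3 they were 13 and 14. Cxcl12, a chemokine of stromal cells, had 2.44, 2.03 and 2.15 CPM in late Fra2 and 5.36, 4.56 and 5.91 CPM in early Fra2 cells (-1.25 ± 0.23, edgeR adjusted p = 0.000574).

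Calls at developmental genes and at markers of other cell types numbered 5 or fewer per list and direction. Polycomb-bound developmental regulators had 1 rising and 5 falling peaks (0.554%) of 902, Hox cluster genes none and 1 of 310, Polycomb subunit genes 1 and 1 of 411, and ribosomal protein genes none and 1 of 277. Endothelial genes had 3 falling peaks of 182 (1.65%, against 1.09% of all peaks), macrophage and blood genes 2 of 108 (1.85%), pericyte and smooth muscle genes 2 of 82 (2.44%) and epithelial genes 1 of 126 (0.794%), none of them with a rising peak. Neuronal genes had 3 rising of 183 (1.64%, against 0.393% of all peaks) and muscle genes 1 of 92, so that the shares of several marker lists lay above that of all peaks on 1 to 3 calls, and pluripotency genes had no call in 131. Summed, macrophage and blood genes had 461 to 484 CPM in late Fra2 and 459 to 477 CPM in early Fra2 libraries, and endothelial genes 802 to 820 CPM in late Fra2 and 808 to 835 CPM in early Fra2 libraries. Their part in the results above was not tested.

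Skeletal and fat lineage genes held shares of falling peaks near the 1.09% of all peaks. Chondrogenic and osteogenic genes had 1 rising peak, at Sox5, and 4 falling ones of 258 (1.55%), all at Runx2, the master factor of bone. At chr17:44546784-44547285 Runx2 had 10.5, 9.76 and 13.3 CPM in late Fra2 and 22.8, 22.6 and 17.6 CPM in early Fra2 cells (-0.91 ± 0.17, edgeR adjusted p = 0.000583), and 14.6, 14.2 and 13.2 CPM in late control and 13.9, 12.3 and 6.86 CPM in early control cells. The early Fra2 libraries were the highest of the 12, and the changes differed (-1.20 ± 0.24, edgeR adjusted p = 0.0224). Adipogenic genes had 3 falling peaks of 259 (1.16%), 1 at Zfp423 and 2 at Ebf2, factors of preadipocytes. Zfp423 had 2.74, 3.15 and 2.52 CPM in late Fra2 and 7.03, 8.31 and 6.56 CPM in early Fra2 cells (-1.37 ± 0.20, edgeR adjusted p = 1.19e-05), and the stronger Ebf2 peak 4.02, 4.16 and 3.25 CPM in late Fra2 and 8.83, 8.55 and 7.93 CPM in early Fra2 cells (-1.14 ± 0.17, edgeR adjusted p = 2.6e-05). Falling calls of the skeletal and the fat list numbered 1 to 3 and 2 to 3 without any 1 of the Fra2 libraries, and 10 and 8 without early control 3.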

How the data were processed

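Raw counts of reads per consensus peak, deposited by the authors without normalization, were used for 15 libraries; 0 count columns were left unused. Peaks were called with MACS2 on mm10, per the submitters' processing notes. For the aligner, the filters and the consensus no source used here gives details, and the per-library peak lists were not used. All but 1 peak were 502 bp wide, and 18 of 206367 were removed by edgeR's filter on low counts.

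edgeR 4.0.16 (R 4.3.3, limma 3.58.1) fitted a mean per group over all 15 libraries with TMM scaling, and its quasi-likelihood tests were adjusted by Benjamini-Hochberg over all peaks, with calls at an adjusted p under 0.05. CPM uses TMM-scaled library sizes, changes are log2, and each SE is the change divided by the root of F. The procedure was tested on simulated data with the same spread for every peak and library. It therefore cannot show how the calls behave under the unequal spread of these libraries. Peaks took the nearest RefSeq protein-coding gene (GRCm38.p6, the mm10 assembly) within 100 kb, which gave 182983 peaks (88.7%) a gene; a peak may act on another gene, and exons were not annotated. A count of 3 was taken as the floor, for counting error only.

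Genes were named by rule: the 12 rising and 12 falling peaks of largest change without overlap and at least 2 CPM, called peaks of listed genes, all peaks near Fosl2, the genes with most called peaks, and the 5 smallest p of the difference in each direction. Genes named only for their sums, and others outside the rule, were chosen after their values were seen. Some genes that the rule picks are not reported here. The members and lists were chosen with earlier results of these data known. Same-numbered late and early Fra2 libraries deviated together at r = 0.16, 0.01 and 0.09, so numbers were not treated as pairs. Alternatives were other scalings and filters, DESeq2 1.42.0, a replicate block, thinning and leaving out each library; those for summed genes, lists and motifs were chosen after seeing the data.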

Additional observations from a re-analysis of the deposited data

Results flagged for a closer look

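By a test of the difference itself, the change from early to late differed between Fra2-activated and control cells at 24 peaks with a positive and 169 with a negative difference. The 5 positive ones with the smallest p were at Id1 (1.36 on the log2 scale), Ptpn11 (1.83), Fn1 (1.55), Gap43 (3.20) and Kcnq3 (2.38). The peak at Ptpn11, a phosphatase gene, had 2.87, 3.09 and 5.77 CPM in late Fra2 and 2.09, 1.92 and 1.95 CPM in early Fra2 cells, and 3.29, 2.29 and 1.58 CPM in late control and 4.4, 4.57 and 3.92 CPM in early control cells. The peak at Gap43, a growth cone protein gene 17.1 kb away, had 2.1, 2.03 and 1.35 CPM in late Fra2 and 0.949, 0.959 and 0.504 CPM in early Fra2 cells, and 0.299, 0.543 and 0.731 CPM in late control and 1.18, 1.74 and 4.34 CPM in early control cells. The peak at Kcnq3, a potassium channel gene, had 2.57, 3.68 and 3.13 CPM in late Fra2 and 1.76, 1.36 and 2.09 CPM in early Fra2 cells, and 0.598, 0.784 and 0.853 CPM in late control and 1.56, 2.61 and 2.66 CPM in early control cells. In all 3 the late and early libraries were apart in both cell groups and moved in opposite directions, though the Fra2 change alone passed the test only at Ptpn11 (0.94 ± 0.25, edgeR adjusted p = 0.0322). The calls at Fn1, Ptpn11, Gap43 and Kcnq3 were lost in some fits without 1 library, all 4 of them without late control 2.

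The 5 negative ones with the smallest p were at Olfr654 (-1.97), Nsd2 (-1.72), Glce (-1.44), Shq1 (-1.42) and Sdccag8 (-1.48). The peak at Nsd2, a histone methyltransferase gene 17 kb away, had 5.44, 5.87 and 5.96 CPM in late Fra2 and 7.41, 7.35 and 7.13 CPM in early Fra2 cells, and 9.71, 7.06 and 7.98 CPM in late control and 3.86, 2.32 and 3.22 CPM in early control cells. The peak at Glce, a heparan sulfate epimerase gene 29.7 kb away, had 10.3, 10.2 and 10.1 CPM in late Fra2 and 15.6, 15.8 and 12.3 CPM in early Fra2 cells, and 11.8, 13.5 and 13.2 CPM in late control and 8, 6.02 and 5.74 CPM in early control cells. The peak at Sdccag8, a centrosome protein gene, had 5.35, 5.28 and 5.22 CPM in late Fra2 and 11.1, 12.7 and 9.51 CPM in early Fra2 cells, and 8.37, 5.73 and 6.7 CPM in late control and 4.35, 6.46 and 4.76 CPM in early control cells. At all 5 peaks the early Fra2 libraries lay above the early control libraries. These 5 calls, and that at Id1, were kept in every fit that left out 1 library.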

How the results depend on the processing

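None of the peaks called over time in Fra2 cells changed sign under any alternative run, which the size of their changes made unlikely. Without 1 Fra2 library, 26.8 to 42.7% of the rising and 38.9 to 67% of the falling calls were kept. Rising and falling calls were 1700 and 3830 with loess, 1363 and 1541 with gene-end scaling, 543 and 1862 with DESeq2, 2205 and 4451 with the 6 Fra2 libraries alone, and 531 and 1509 with these thinned to the shallowest. The replicate block gave 813 and 2244, or 3308 and 5791 with the 6 Fra2 libraries alone. Leaving out 1 of the 6 Fra2 libraries or early control 3 gave 229 to 2202 rising and 951 to 4426 falling calls. DESeq2's size factors and other filters moved neither count by 1.5 times. Positive and negative differences from controls numbered 112 and 480 with loess, 40 and 365 with gene-end scaling, and 26 and 227 with the replicate block. DESeq2 gave 19 and 347, among them only 7 of the 24 and 145 of the 169 peaks of the main fit. Of the 10 peaks named for the difference, DESeq2 gave an adjusted p for 7, all called. On leaving out 1 library the differences numbered 1 to 96 and 21 to 500. Summed genes, 70 rising and 182 falling, became 151 and 72 with gene-end scaling and 439 and 648 without early control 3, and numbered 7 to 36 and 34 to 134 without 1 Fra2 library. Of 62 peaks followed singly, 9 lost the call with gene-end scaling, 4 with DESeq2, 1 under the block and 13 to 19 without 1 Fra2 library. Gene-end shares differed by -0.663 and -0.785 points with windows of 0.5 and 2 kb (exact permutation p = 0.3 and 0.2). The causes were not tested. Early control 3 was the shallowest library, with 6.75 M reads; how depth bears on the calls was run only as thinning of the Fra2 libraries.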
